A study of Oryza sativa Japonica Group with 9 samples.

Results

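Peaks found only in the OsbZIP23 overexpressor are regions of the rice genome where chromatin immunoprecipitation followed by sequencing (ChIP-seq) with an anti-OsbZIP23 antibody gave a called peak in overexpressing seedlings under normal growth and in no wild-type library. They were chosen by the borders of the authors' called peaks, as the peaks of the overexpressor list that share 1 bp or more with no peak of the wild-type list under normal growth and with no peak of the wild-type list under drought. The rule picked 8779 of the 11611 overexpressor peaks, out of 17609 peaks in all 3 lists. The members were selected on whether a peak was called in each library, so the tags, scores and fold enrichments that led to the calls are given below as a description, without a test.

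The series (6 RNA libraries beside the 3 of chromatin) studied how OsbZIP23 acts in the drought response of rice, Oryza sativa. The wild type was the Japonica cultivar Zhonghua 11 (ZH11), and the other line of the ChIP-seq carried overexpressed OsbZIP23. Soil-grown seedlings of both lines were at the 4-leaf stage, and the above-ground parts were used. The 3 ChIP groups were ZH11 under normal growth, ZH11 under drought that lasted until every leaf had rolled, and the overexpressor under normal growth. Each group had 1 library, from 3 g of seedlings fixed in 1% formaldehyde, with chromatin sheared to about 100 to 500 bp. All 3 were precipitated with the same non-commercial rabbit polyclonal antibody, and no control library entered the peak calls. The sources used here do not give the promoter that drives OsbZIP23 in the overexpressor or how many plants were pooled.

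OsbZIP23 belongs to the basic leucine zipper (bZIP) transcription factors and works in the abscisic acid (ABA) pathway, the hormone route by which plants answer water shortage. Factors of this family form dimers, and those of its ABA-responsive group are known to bind promoter elements with an ACGT core and to be activated by kinases once ABA has released these from phosphatases. A ChIP-seq peak marks a stretch of DNA that was recovered with the antibody more often than its surroundings. The factor may touch DNA there directly or through other proteins. No control library entered these calls, so a peak alone does not show that the factor was present.

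The transcript of the targeted gene was high in the line and condition that gave the peaks. OsbZIP23 (LOC_Os02g52780) had 1480 CPM (reads scaled to the library total) in the overexpressor under normal growth (95% interval 1457–1503), 36.2 in ZH11 under normal growth (32.9–39.7) and 415 in ZH11 under drought (404–426). The overexpressor level was 40.9-fold that of ZH11 normal (37.2–45.1) and 3.57-fold that of ZH11 drought (3.46–3.68). These intervals cover counting error only, and with 1 library a group there is no replicate check on any difference between groups.

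The overexpressor library was the shallowest of the 3 and gave the most peaks. It kept 6.05 M tags (aligned reads, 1 per position) of 6.96 M, against 6.15 M of 7.80 M in ZH11 normal and 7.14 M of 9.93 M in ZH11 drought. The share removed as repeats at a position was 13.1% in the overexpressor, 21.1% in ZH11 normal and 28.1% in ZH11 drought. The lists held 11611, 1738 and 4260 peaks in that order, covering 15.5 Mb, 2.46 Mb and 6.60 Mb. Tags inside peaks were 16.0% of the kept tags in the overexpressor, 1.27% in ZH11 normal and 4.32% in ZH11 drought. The library with the most peaks thus had the fewest kept tags and the lowest share of repeated reads, and the part of the latter in the peak numbers was not tested.

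The overexpressor-only peaks made up 75.6% of the overexpressor list (exact 95% interval 74.8–76.4). The share depends on how many peaks enter. With the ZH11 lists left whole, it was 61.6% (2623 of 4260) among the highest-scoring overexpressor peaks at the length of the ZH11 drought list. At the length of the ZH11 normal list it was 45.6% (792 of 1738). With a score of at least 100 required in all 3 lists it moved the other way, to 89.3% (4830 of 5408). The overexpressor-only peaks covered 11.4 Mb and held 67.5% of the tags inside overexpressor peaks, or 10.8% of all kept tags of that library. Another 2116 overexpressor peaks (18.2%) overlapped a ZH11 drought peak only, 262 (2.26%) a ZH11 normal peak only, and 454 (3.91%) a peak of both lists. Among the overexpressor peaks with a partner in ZH11, a drought partner was thus far more common than a partner under normal growth, in lists of 4260 and 1738 peaks. Absence was not one-sided: of the ZH11 normal peaks, 1043 (60.0%) overlapped no overexpressor peak, and of the ZH11 drought peaks, 1751 (41.1%) did not. Between the ZH11 lists the overlap was 741 peaks or 42.6% of the normal list and 752 peaks or 17.7% of the drought list.

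In median score, fold enrichment and tags, the overexpressor-only peaks lay somewhat below their whole list, of which they are the larger share. Their tags ran from 7 to 471 with a median of 63 (quartiles 43 and 93). Their fold enrichment, the authors' ratio of tags at the peak to the local background, ran from 3.11 to 30.84 with a median of 8.40 (quartiles 6.64 and 11.12). Their score, -10 times the log10 of the authors' p value, ran from the calling limit of 50 to 871 with a median of 85.2 (quartiles 62.4 and 134). The limit of 50 is set by the p cutoff of the caller, and the lower quartile lay close to it. Their length ran from 164 to 6360 bp with a median of 1121 bp (quartiles 816 and 1593).

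Overexpressor peaks that overlapped ZH11 drought alone were stronger on each of these measures. Their medians were 106 tags, 11.0 for fold enrichment, 169 for score and 1365 bp for length. Peaks that overlapped ZH11 normal alone had medians of 35 tags, 77.9 for score and 959 bp for length, below the overexpressor-only peaks. Their median fold enrichment was 8.18 (95% interval 7.63–8.81). That interval holds the 8.40 of the overexpressor-only peaks, so no order can be read on this measure. Peaks present in all 3 lists had fewer tags than the overexpressor-only peaks (median 47) and were shorter (median 858 bp), yet had the highest median fold enrichment, 12.5. These classes are cut by the same calls, so the order is a property of the lists and not a test.

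The overexpressor-only peaks, called in neither ZH11 library, had higher median scores, fold enrichments and tag numbers than the peaks that were called there. This order was not particular to them. The whole overexpressor list had medians of 94.4 for score, 8.85 for fold enrichment and 66 tags. Its peaks shared with ZH11 had 149, 10.9 and 89. The median score was 61.3 in the whole ZH11 normal list and 66.6 in the whole ZH11 drought list. Of the overexpressor-only peaks, 76.7% and 68.9% exceeded these values. The median fold enrichment was 6.09 and 6.34 in the ZH11 lists, exceeded by 81.8% and 78.8% of the overexpressor-only peaks. The median number of tags was 34 and 56, exceeded by 85.9% and 57.0%. In length the order was the other way, with a median of 1121 bp against 1179 bp in the ZH11 normal list and 1341 bp in the ZH11 drought list. The lists came from separate libraries that differ in depth, and tag numbers were not scaled.

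**Figure D1:**
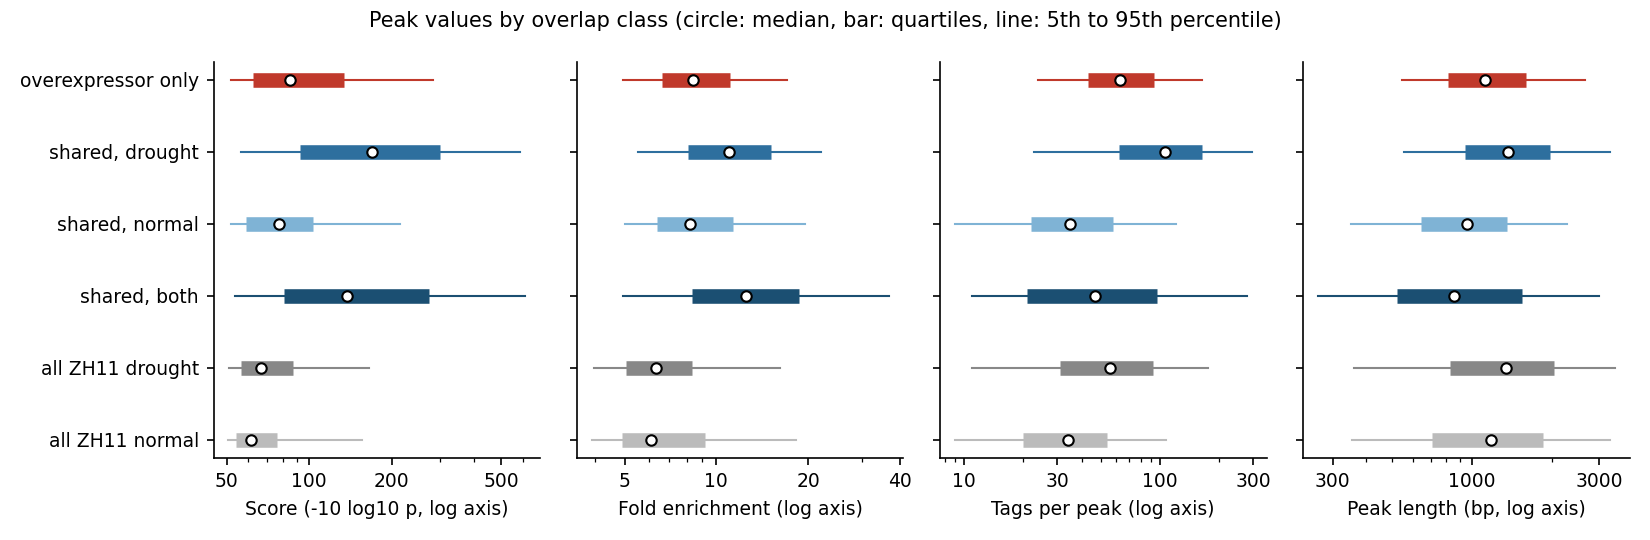
Score, fold enrichment, tags and length (log axes) of overexpressor peaks by overlap class and of the 2 whole ZH11 lists; circles are medians, thick bars the quartiles and thin lines the 5th to 95th percentiles. The overexpressor-only peaks (median score 85.2) sit below the peaks shared with drought (169) and above both whole ZH11 lists (66.6 and 61.3).

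The share of overexpressor peaks that were found in that library alone was lowest among the peaks with the highest score, fold enrichment or tag number. When the 11611 peaks were split into 10 equal classes by score, 86.2% of the lowest class (scores 50 to 54.9) overlapped no ZH11 peak, against the 75.6% of the whole list. The share was 81.1% in the fifth class by score and 61.7% in the ninth. In the highest class (scores of 278 and above) it was 39.3% (95% interval 36.5–42.2), and there 50.4% of the peaks overlapped ZH11 drought only and 9.56% overlapped both lists. Split by fold enrichment, the shares ran from 84.2% in the lowest class to 48.7% in the highest. By tags the share was also low at the other end: it was 64.5% in the class with the fewest tags (7 to 29), 87.9% in the fourth class and 44.5% in the class with the most. By length it was 68.3% among the shortest peaks, 82.9% in the third class and 65.9% among the longest. In the top class by score 456 peaks overlapped no ZH11 peak. Of the overexpressor-only peaks, 3539 (40.3%) had a score of at least 100, against 46.6% of all overexpressor peaks and 66.0% of those shared with ZH11. A fold enrichment of at least 10 was found in 2961 of them (33.7%), against 39.3% of all and 56.6% of the shared peaks.

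**Figure D2:**
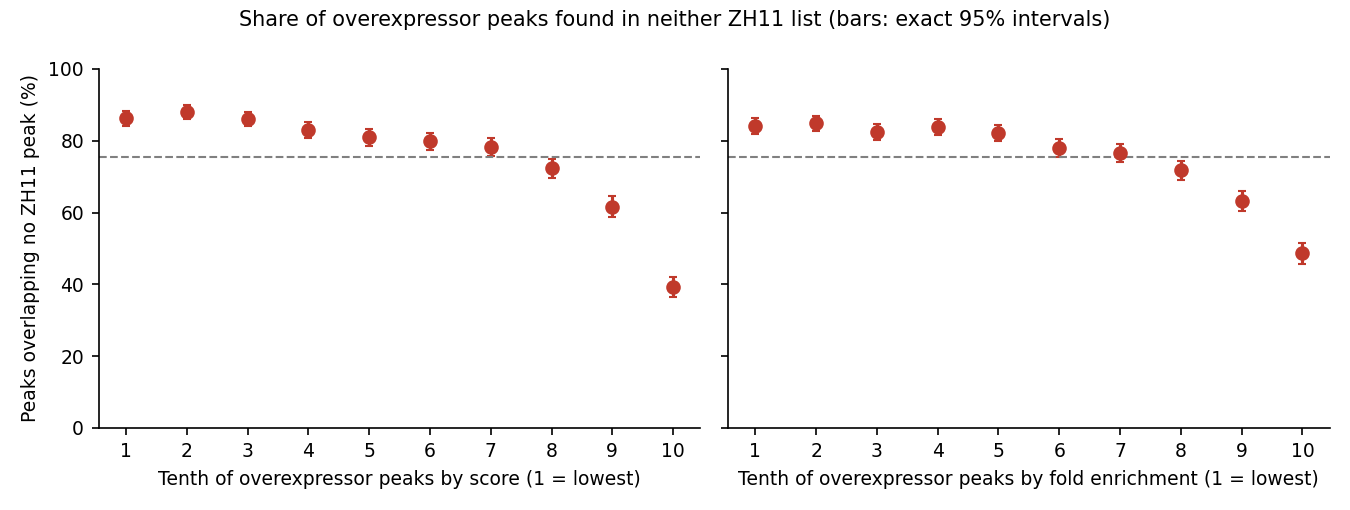
Percentage of overexpressor peaks that overlap no ZH11 peak, in 10 equal classes of score (left) and fold enrichment (right), with exact 95% intervals; the dashed line is the 75.6% of the whole list. The share is 86.2% in the lowest score class and 39.3% in the highest.

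The 3 measures of strength picked out different peaks. The 10 overexpressor-only peaks with the highest score had 144 to 272 tags, lay on 6 chromosomes and were compact, 577 to 1481 bp long. The highest score, 871, belonged to a peak on chromosome 3 from 2096293 to 2097365, with 216 tags (Poisson interval 188–247) and a fold enrichment of 24.06; the nearest ZH11 peak, of the drought list, was 84582 bp away. The next was on chromosome 5 from 1250760 to 1251544, with 200 tags, a fold enrichment of 20.78 and a score of 842. Another, on chromosome 3 from 26737705 to 26738281, had 146 tags within 577 bp and a score of 809. The peaks just named held 201, 255 and 253 tags per kb in that order, against a median of 52.8 over the overexpressor-only peaks. They were picked by score, which is computed from tags, so this density is not an independent trait.

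Further peaks of this group lay on chromosome 12 from 26429617 to 26431097 (272 tags, score 783) and from 20015730 to 20016662 (173 tags, score 641). On chromosome 8, the peak from 21436548 to 21437404 had 174 tags, a score of 729 and a fold enrichment of 24.96, and it was the single peak that stood among the 10 highest by both score and fold enrichment. The densest of the 10 was on chromosome 11 from 20178075 to 20178655, with 150 tags, 258 tags per kb and a score of 721. The remaining 3 were on chromosome 3 from 30124113 to 30125185 (196 tags, score 697), on chromosome 1 from 41869627 to 41870306 (144 tags, score 663) and on chromosome 3 from 1871727 to 1872704 (195 tags, score 636). Chromosome 3 thus held 4 of the 10, beside 12.5% of all overexpressor-only peaks, and 10 peaks are too few to read a concentration from.

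The 10 with the highest fold enrichment mixed well-covered peaks with sparse ones. The highest, 30.84, was on chromosome 7 from 7157256 to 7159245, with 202 tags (175–232) and a score of 414. Peaks on chromosome 12 from 7388960 to 7389583 (27.37, 78 tags) and on chromosome 5 from 11694915 to 11695441 (26.17, 82 tags) had scores of 438 and 445. Others rested on few reads. A peak on chromosome 3 from 28081749 to 28082001 had the same fold enrichment of 27.37 from 12 tags (6.20–21.0) and a score of 109. Those on chromosome 4 from 18014296 to 18014769 (26.06) and on chromosome 5 from 12725575 to 12725880 (25.39) had 11 and 10 tags. The first of this pair lay 41 bp from a ZH11 normal peak, so its place among the overexpressor-only peaks depends on where the peak borders were drawn.

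The other 4 of these 10 had fold enrichments of 28.60 on chromosome 4 from 14806857 to 14807531 (50 tags), 26.33 on chromosome 10 from 10987772 to 10988612 (90 tags), 25.10 on chromosome 11 from 22178532 to 22179585 (133 tags) and 24.96 for the chromosome 8 peak above. Low tag numbers with a high ratio formed a small group of their own. The 105 overexpressor-only peaks with at most 12 tags (1.2%) had a median fold enrichment of 12.5, above the 8.40 of all, but a median score of 56.0 and a median length of 384 bp. The 16 at the minimum of 7 tags (Poisson interval 2.81–14.4) had fold enrichments from 9.12 to 20.44. In this list a high ratio alone thus does not separate a dense peak from a sparse one.

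The peaks with the most tags were broad. The 10 highest held 398 to 471 tags over 2488 to 6020 bp, and none of them was among the 10 highest by score or by fold enrichment. The highest, 471 tags (429–516), was on chromosome 6 from 26425076 to 26428850, with a fold enrichment of 12.08 and a score of 270. A peak on chromosome 5 from 26855951 to 26861961 had 469 tags over 6011 bp, a fold enrichment of 8.23 and a score of 125. Peaks with 459 tags lay on chromosome 9 from 12743432 to 12745919, with a score of 536, and on chromosome 4 from 24112952 to 24118461, with a score of 172. Tag number went with length: across the 8779 peaks, tags and length had a Spearman rho of 0.75, while fold enrichment and length had -0.10 and score and length 0.08. These are descriptions over peaks of 1 library, which share its depth and its caller.

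The rest of this group had between 398 and 416 tags, with 2 peaks on chromosome 2, 1 on chromosome 10, 1 on chromosome 1, 1 on chromosome 5 and 1 on chromosome 11. Their scores differed widely, from 66.3 on chromosome 2 (28993906 to 28999751, 408 tags) to 366 on the same chromosome (26140708 to 26143896, 416 tags). The longest overexpressor-only peak, 6360 bp on chromosome 4 from 24655479 to 24661838, had 312 tags, a fold enrichment of 7.59 and a score of 75.2, and ended 1119 bp from a ZH11 drought peak. The next 4 in length measured 5846 to 6020 bp, and 3 of the 5 longest were among the 10 with the most tags. At the other end, the 5 shortest measured 164 to 229 bp and held 7 to 13 tags, with scores of 51.7 to 88.6. The shortest was on chromosome 9 from 2247863 to 2248026, with 7 tags and a fold enrichment of 9.29.

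The strongest overexpressor peaks were not overexpressor-only. In the whole overexpressor list, 33 peaks had a higher score than 871, 40 a higher fold enrichment than 30.84 and 13 more tags than 471. These limits are the highest values of the overexpressor-only peaks, so the peaks above them overlap a ZH11 peak by definition. The summit, the position with the most overlapping tags, lay near the middle of the overexpressor-only peaks, at a median of 49.6% of their length (quartiles 36.5% and 63.0%), as in the shared peaks (median 49.8%).

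The overexpressor-only peaks lay at a wide range of distances from the nearest ZH11 peak. The median distance from the border of such a peak to the nearest ZH11 peak was 29.0 kb (quartiles 12.5 and 59.3 kb), and the largest was 399 kb. To the drought list alone the median was 33.9 kb and to the normal list alone 120 kb, the drought list being the longer one. Within 1000 bp of a ZH11 peak there were 188 (2.14%), and within 10000 bp 1761 (20.1%). No comparison with randomly placed regions was made, so these shares do not show whether the peaks lie unusually far from ZH11 peaks. The nearest pair of summits was 312 bp apart; that the rule bars overlap keeps summits apart by itself. The 188 near ones had a median of 48.5 tags and a score of 77.2, and the 923 that were over 100000 bp from a ZH11 peak had 63 tags and a score of 88.7.

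At the edge of the rule, the closest overexpressor-only peaks lay 3 bp from a ZH11 peak on chromosome 9 (14020467 to 14022832; 197 tags, fold enrichment 7.37), 10 bp on chromosome 3 (14976621 to 14977310; 17 tags, 9.42) and 15 bp on chromosome 12 (20501345 to 20505681; 312 tags, 3.33). Just outside it, overlaps of 9 bp on chromosome 5 (9619017 to 9619392; 8 tags, 22.80), 12 bp on chromosome 2 (2607664 to 2608380; 18 tags, 7.89) and 29 bp on chromosome 6 (5613540 to 5614425; 46 tags, 10.79) made a peak shared. The scores were 51.2, 61.9 and 57.6 inside the rule and 65.6, 54.9 and 131 outside it, so 5 of these 6 peaks lay below the median of 85.2.

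**Figure D3:**
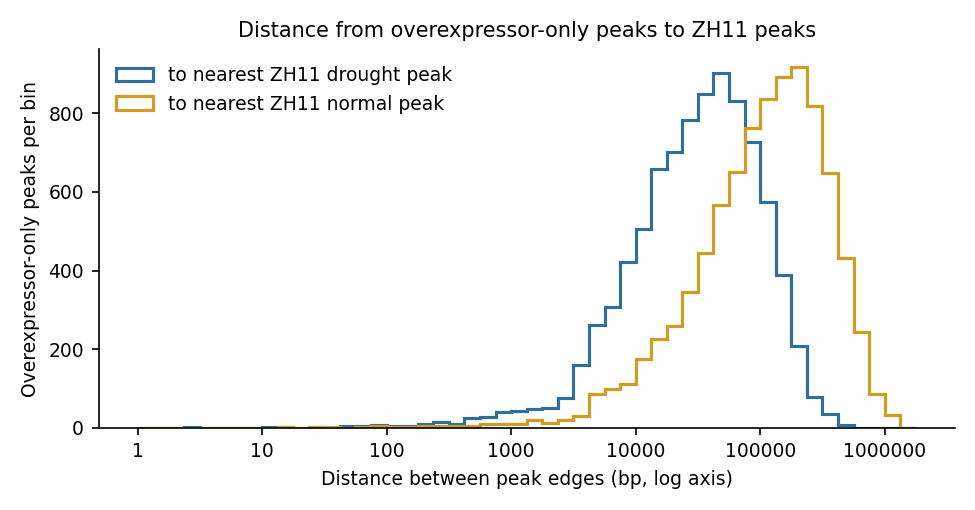
Number of overexpressor-only peaks by the distance in bp (log axis) between their border and that of the nearest ZH11 drought peak or ZH11 normal peak. Both distributions lie mostly above 5000 bp, with medians of 33.9 kb for drought and 120 kb for normal growth, and have a thin tail of close neighbours.

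Position along the genome was not part of the rule, except that a place taken by a ZH11 peak could not be counted. Overexpressor-only peaks were densest on chromosome 3, with 30.3 per Mb (exact 95% Poisson interval 28.6–32.2) from 1101 peaks, and on chromosome 1, with 29.7 per Mb (28.1–31.3) from 1283 peaks. Chromosome 2 followed with 26.9 (25.2–28.6) and chromosome 5 with 25.4 (23.6–27.2). They were sparsest on chromosome 11, with 16.4 per Mb (15.0–17.9) from 475 peaks, and on chromosome 12, with 16.7 (15.2–18.3) from 460 peaks. The 6 other chromosomes had 21.1 to 22.5 per Mb, and their intervals overlapped, so no order among them can be read. Per Mb, chromosome 3 had 1.85 times as many as chromosome 11 (95% interval 1.66–2.06). Lengths here are the span up to the last peak of any list.

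The ZH11 normal list ran the other way along the same chromosomes. It had its highest density on chromosome 11, with 6.84 peaks per Mb, and its lowest on chromosome 3, with 3.28. Over the 12 chromosomes, the density of overexpressor-only peaks had a Spearman rho of -0.70 with that of ZH11 normal peaks, 0.36 with that of ZH11 drought peaks and 0.66 with that of the shared overexpressor peaks. These are descriptions over 12 chromosomes of unequal length, from 3 libraries of 1 study.

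Set against the overexpressor list itself, the chromosomes were more alike. The overexpressor-only peaks were 70.5% (66.9–73.9) of the overexpressor peaks on chromosome 11, 72.1% (69.1–74.9) on chromosome 6 and 72.4% (68.8–75.9) on chromosome 12, against 75.6% over all. The highest shares were 78.6% (75.5–81.5) on chromosome 8 and 78.3% (75.9–80.6) on chromosome 2. That list consists mostly of the overexpressor-only peaks, so these shares are not an independent measure of their density. The shared overexpressor peaks, counted apart, had 8.98 per Mb on chromosome 3 and 6.87 on chromosome 11, a ratio of 1.31 (95% interval 1.09–1.57) against the 1.85 of the overexpressor-only peaks. On the 2 small scaffolds named ChrSy and ChrUn in the files, 5 of 23 overexpressor peaks (21.7%) were overexpressor-only. Median tags per peak ranged from 53 on chromosome 11 to 67 on chromosomes 2 and 3, while the median fold enrichment stayed between 8.15 on chromosome 4 and 8.64 on chromosome 2.

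**Figure D4:**
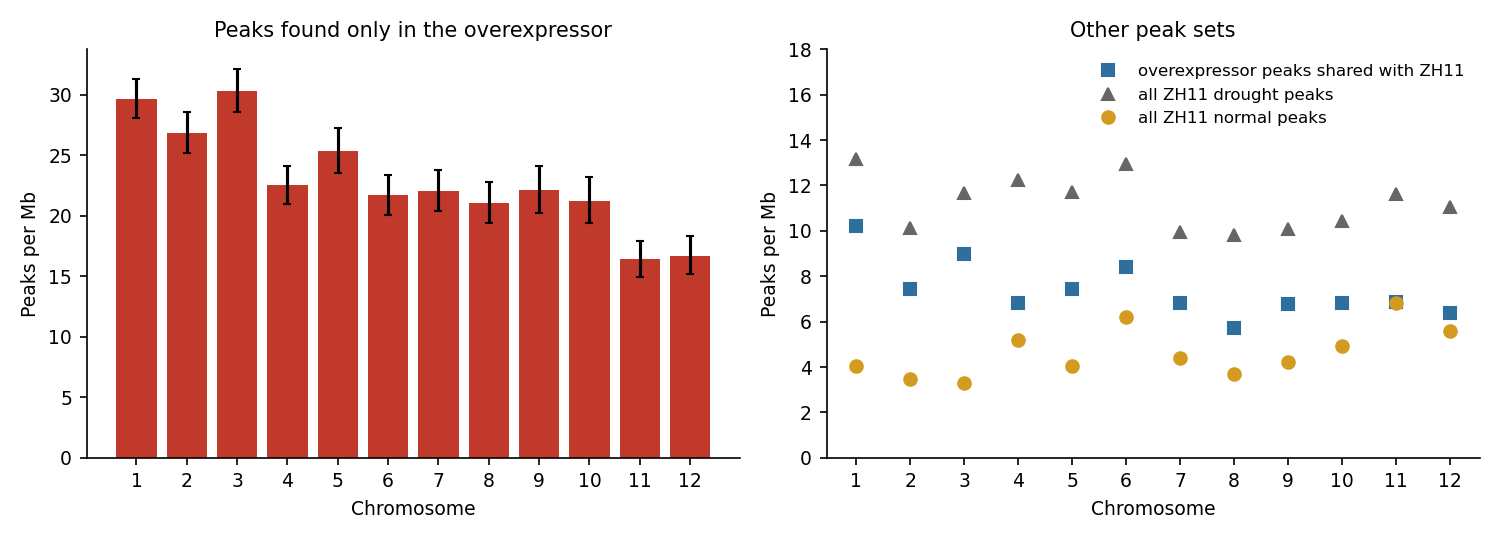
Overexpressor-only peaks per Mb of each chromosome with exact 95% Poisson intervals (left), and shared overexpressor peaks, ZH11 drought peaks and ZH11 normal peaks per Mb (right). Overexpressor-only peaks range from 16.4 on chromosome 11 to 30.3 on chromosome 3, and ZH11 normal peaks from 3.28 on chromosome 3 to 6.84 on chromosome 11.

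Pooled over the 12 chromosomes, overexpressor-only peaks were sparse before the middle and more frequent after it. When each of the 12 chromosomes was divided into 10 equal parts, the first and the second part held 10.5% of them each, the third 7.96% and the sixth 8.30%. The seventh to the last held 10.8%, 12.9%, 13.9% and 13.6%. The fourth and the fifth parts together held 11.6% of them (11.0–12.3) and the outermost 4 parts, a pair at each end, held 48.4% (47.4–49.5). An even spread would put 10% in each part. The whole overexpressor list, of which they are the larger share, had 12.5% (11.9–13.1) and 47.5% (46.6–48.4), and all overexpressor peaks shared with ZH11 had 15.2% (13.9–16.6) and 44.6% (42.8–46.5). The overexpressor peaks shared with drought alone were placed alike, with 11.1% (9.83–12.6) and 46.7% (44.5–48.8). The ZH11 normal list had 27.2% (25.1–29.4) in the fourth and the fifth parts and 36.2% (33.9–38.6) in the outer ones, and the overexpressor peaks present in all 3 lists had 32.1% (27.8–36.7) and 35.7% (31.3–40.4). The ZH11 drought list lay between, with 19.8% (18.6–21.1) and 40.4% (38.9–41.9). For the inner parts, the interval of the overexpressor-only peaks thus overlapped that of the drought-shared class and lay below those of both whole ZH11 lists; the difference was not tested over replicates.

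The part with the fewest overexpressor-only peaks was the fourth or the fifth on 8 of the 12 chromosomes. It was the fourth part on chromosomes 1, 2, 5 and 7, the fifth on chromosomes 4, 6, 8 and 11, the sixth on chromosome 3, the third on chromosome 12, the third and the fourth alike on chromosome 10 and the second on chromosome 9. On chromosome 4 the parts fell into a low and a high stretch, as its first 5 parts held 36 to 42 overexpressor-only peaks each and its last 5 held 103 to 129. On chromosome 11 the numbers ran from 17 in the fifth part to 74 in the first. On chromosome 3 they ran from 52 in the sixth part to 143 in the third, so the pooled pattern did not hold on every chromosome. On chromosomes 1, 2, 3, 5, 8 and 9, the part with the fewest overexpressor-only peaks was also the part with the most ZH11 normal peaks, and on chromosomes 6 and 10 it was so by a tie.

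Overexpressor-only peaks in the low stretch also held fewer tags. The median was 52 tags in the fourth part and 50 in the fifth, against 62 in the first and 71 in the last. The median length followed, at 992 and 991 bp against 1097 and 1223 bp. Fold enrichment, which is taken against the local background, did not follow: its medians were 8.59 and 8.70 in the fourth and the fifth parts and 8.61 and 8.42 in the first and last. The low in tags was not particular to these peaks. In the same parts, overexpressor peaks shared with ZH11 had medians of 55 and 54.5 tags against 92 and 95.5. The ZH11 drought list had 39 and 40 against 56.5 and 74, and the ZH11 normal list 28 and 33 against 33.5 and 36.

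**Figure D5:**
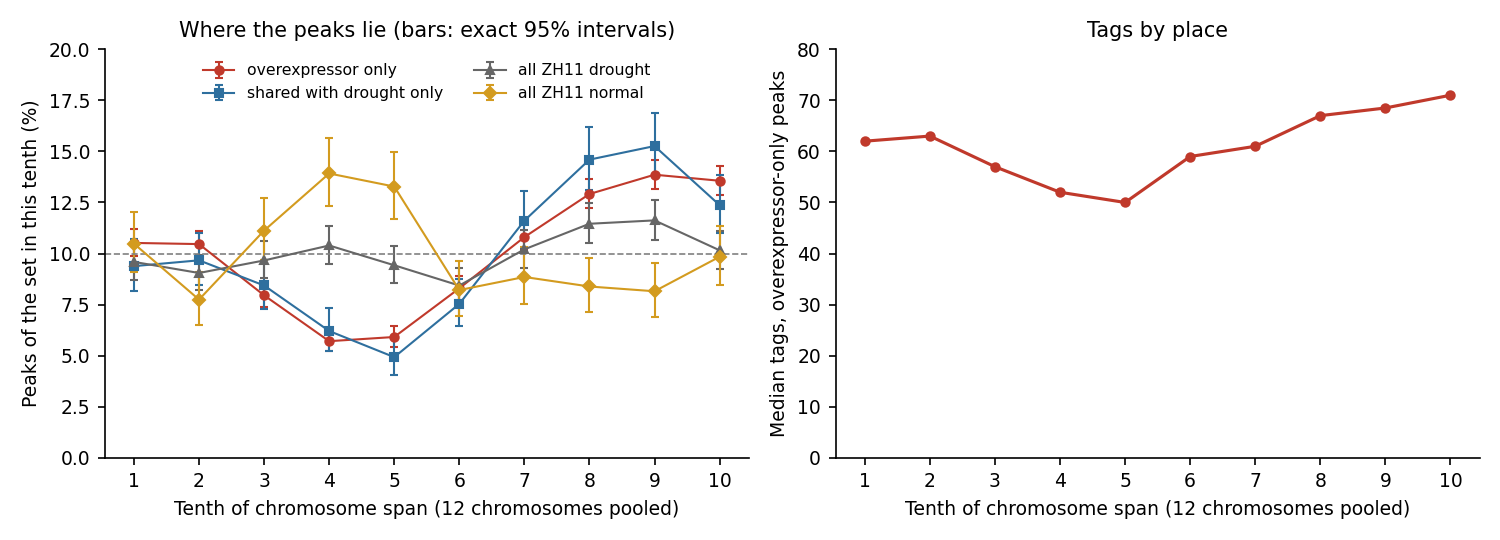
Left, percentage of each peak set in the 10 equal parts of the chromosome span, 12 chromosomes pooled, with exact 95% intervals; the dashed line at 10% is an even spread. Right, median tags of overexpressor-only peaks in each part; both panels have their low for these peaks in the fourth and the fifth parts, where the ZH11 normal list has its highest shares.

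In windows of 1 Mb, none of the 366 windows was without an overexpressor-only peak. The number ranged from 2 to 50 with a median of 23 (quartiles 14 and 33). The fullest windows, with 50 peaks each, were neighbours on chromosome 3, from 1000001 to 2000000 and from 2000001 to 3000000, and held 1 and 2 ZH11 normal peaks. The emptiest, with 2, was on chromosome 11 from 12000001 to 13000000, which had 22 ZH11 normal peaks, the most of any window, and 30 ZH11 drought peaks; 16 of its overexpressor peaks overlapped a ZH11 normal peak. Over all windows, the number of overexpressor-only peaks had a Spearman rho of 0.66 with that of overexpressor peaks shared with drought alone, -0.36 with that of ZH11 normal peaks and 0.10 with that of ZH11 drought peaks. Neighbouring windows are not independent, and the counts come from the same 3 libraries, so these values describe the lists.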

How the data were processed

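OsbZIP23 ChIP-seq peaks from 3 libraries were analysed, 1 per group. Per the file headers, the authors called peaks per library with MACS 1.4.2, without a control, at a p cutoff of 1e-05, with a background window of 10000 bp, 1 tag kept per position and a genome size set to 2.7 Gb. The chromosomes reached by peaks add up to 374 Mb, less than the genome size that was set. The effect of that setting on scores and fold enrichments was not tested. Trimmomatic 0.32 is named in the submitters' processing notes. For the aligner and the genome build, nothing is given in the sources used here. The deposited lists give tag counts, fold enrichment (a ratio) and a score (-10 log10 p). Positions are 1-based, as deposited.

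Overlaps of 1 bp or more were found with bedtools 2.31.1 and checked on 3600 simulated peaks, of which 3600 were classed as made. Intervals of counts, shares and ratios are exact (Clopper-Pearson or Poisson) at 95% and were computed with scipy 1.17.1. They cover counting error only, since reads carry no molecular identifiers. Intervals of medians come from the ranks of the peaks (exact binomial) and do not cover differences between libraries. Plants were not replicated, so no test was made. Chromosome length is the end of the last peak in any list. Named peaks are the 10 highest by fold enrichment, tags and score and the 5 longest and 5 shortest. The overexpressor-only class and these measures were chosen with earlier results of these data known. The deposited RNA tables hold expected counts per gene, per the file headers; they were rounded and scaled to the library total for OsbZIP23 alone. Genes near peaks, peak sequence and the RNA of nearby genes were not analysed here, as no genome or annotation of the files' build was used.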

Additional observations from a re-analysis of the deposited data

How the results depend on the processing

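The number of overexpressor-only peaks stayed within 1.5 times of 8779 under every other overlap rule tried, from 8591 with ZH11 peaks up to 1000 bp away counted as shared to 9533 with summits within 200 bp required; leaving out the ZH11 normal list gave 9041 and leaving out the ZH11 drought list 10895. Stricter peaks lowered it by construction, since fewer peaks entered: 3539 of 5408 peaks (65.4%) at a score of at least 100, 2961 of 4565 (64.9%) at a fold enrichment of at least 10, and 4830 of 5408 (89.3%) when the score limit also applied to the ZH11 lists. With the overexpressor list shortened by score to the length of the ZH11 drought list, 2623 of 4260 (61.6%) were overexpressor-only, and at the length of the ZH11 normal list 792 of 1738 (45.6%); these lengths were chosen after seeing the data. At a score of at least 100 the medians moved to 87 tags, 11.5 for fold enrichment, 152.52 for score and 1143 bp, the ratio of chromosome 3 to chromosome 11 to 2.17, and the share in the fourth and the fifth parts to 10.7%. Per overexpressor peak, and not per Mb, that ratio was 1.09 (95% interval 0.982–1.22). Without peaks near ZH11 peaks (1000 bp) the medians and that share lay within their intervals. Alternatives on sequence, nearby genes and their RNA were not run. No paired analysis was possible because each group has 1 library. Depth limits what a missing ZH11 peak shows, with 6.15 M kept tags in ZH11 normal and 7.14 M in ZH11 drought, against 6.05 M in the overexpressor. The ZH11 lists hold no tag numbers for places without a call, so the level there is unknown.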

Other observations

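Overexpressor-only peaks followed one another along the chromosomes. Read in order, the overexpressor list held 1913 unbroken runs of such peaks, with a median of 3 peaks, and 446 runs of a single peak. Runs of 10 or more numbered 223 and contained 3099 peaks, 35.3% of the overexpressor-only ones. The longest, 34 peaks in a row with no overexpressor peak shared with ZH11 among them, spanned 1145 kb on chromosome 2 from 19631904 to 20776549. Runs of 30 and 29 peaks lay on chromosome 2 from 223521 to 1025469 and on chromosome 3 from 32057046 to 32695820. With 75.6% of the list overexpressor-only, runs are common by the share alone, and no test was made of their length.

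Close pairs were found in both classes. The next overexpressor peak lay within 1000 bp for 548 overexpressor-only peaks (6.24%) and for 318 shared peaks (11.2%), and within 5000 bp for 24.1% and 28.6%. The median distance to the next overexpressor peak was 9.87 kb and 8.82 kb.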
